A study of Mus musculus with 16 samples.

Results

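The embryonic globins and the factors that switch them off were followed across fetal livers of 2 ages and 4 genotypes. Of the genes described, 3 encode embryonic globin chains (Hba-x, Hbb-bh1 and Hbb-y) and 4 encode transcription factors of the globin switch (Bcl11a, Sox6, Klf1 and Myb). They were chosen by name, as the probe sets paired with 1 of these symbols, and all 7 were found among the 19934 gene symbols measured. All 7 passed the filter on dim probe sets, so each was tested. Each is read by 1 probe set.

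Messenger RNA was measured on 16 Affymetrix whole-transcript arrays of cell suspensions from mouse fetal livers, taken at embryonic day 14.5 (E14.5) and 12.5 (E12.5). The livers carried an ERG transgene together with the GATA1s knock-in allele (ERG/GATA1s), the GATA1s allele alone (labelled WT/GATA1s, here GATA1s), the ERG transgene alone (labelled ERG Tg, here ERG), or neither (wild type, WT). GATA1s is the short isoform of GATA1, the factor that drives red cells and megakaryocytes, and is missing the amino-terminal part. ERG acts in stem cells of the blood and in megakaryocytes. There were 8 groups of 2 arrays, of which 1 was labelled female and the other male. The sources used here do not give the promoter or species of the ERG transgene, the copies of the X-linked GATA1s allele that females carried, or whether embryos were pooled, and p-values therefore cover only variation among these samples. The deposited values are log2 signals normalized by the authors with RMA, and every difference below is on that log2 scale.

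Red cells of the mouse embryo arise in waves. Primitive red cells from the yolk sac carry embryonic haemoglobin, built from the alpha-like chain of Hba-x and the beta-like chains of Hbb-bh1 and Hbb-y. The fetal liver then becomes the site where definitive red cells mature, and these carry adult globins. The change is directed by transcription factors: BCL11A silences the embryonic beta-like genes in definitive cells, SOX6 represses Hbb-y, KLF1 activates adult beta-globin and Bcl11a, and MYB maintains dividing progenitors and, in human cells, restrains fetal globin.

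Array medians ran from 4.79 to 4.94, and residuals of the fit had a median SD of 0.1615. Xist and 3 Y-linked genes opposed the labelled sex on 3 arrays: 1 labelled female in E14.5 ERG/GATA1s, and 1 labelled male in each of E12.5 ERG/GATA1s and E12.5 GATA1s. On these markers the E14.5 ERG/GATA1s pair resembled males, and the pairs of E12.5 ERG/GATA1s and E12.5 GATA1s resembled females. The E14.5 WT pair held an array of each kind, and the E12.5 WT pair a female-like and a mixed array. Sex is thus partly confounded with genotype. A fit with the Y-linked level as covariate is given for the ERG/GATA1s calls against WT and for Hbb-bh1 in ERG livers. Calls that it lost are named below. On 3 further arrays labelled male, those of E14.5 ERG, E12.5 ERG and E12.5 WT, Xist (10.03, 5.73 and 9.35) and the mean of the Y-linked genes (5.27, 5.61 and 4.95) were mixed. The probe set of mouse Erg differed by 0.39 ± 0.10 between ERG/GATA1s and WT livers over both stages (limma, adjusted p = 0.0252), while the difference of 0.22 ± 0.10 between ERG and WT livers did not pass (adjusted p = 0.655). Its signal was 5.58 to 5.88 in ERG livers, against 5.35 to 5.53 in WT livers, but 5.32 to 5.80 in GATA1s livers and 5.66 to 6.01 in ERG/GATA1s livers. Livers with and without the transgene overlapped, and whether the probe set reads the transgene is not given. The E12.5 ERG array labelled male stood apart in several genes described here. Marker lists matched the labelled tissue: the mean of 26 definitive red cell genes was 9.29 to 10.52 on every array, and that of 13 hepatocyte genes 8.46 to 11.31. The 8 B lymphoid genes that passed the filter, listed because B cells also express Bcl11a, averaged 4.01 to 4.47.

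Hba-x, the embryonic zeta-like alpha chain, fell between the stages in every genotype. At E14.5 its signal was 10.56 and 10.83 in ERG/GATA1s, 10.14 and 9.84 in GATA1s, 10.18 and 9.87 in ERG, and 9.58 and 9.48 in WT livers, with the array labelled female given before the one labelled male here and below. At E12.5 it was 12.30 and 12.33 in ERG/GATA1s, 12.02 and 12.06 in GATA1s, 12.08 and 12.54 in ERG, and 12.13 and 12.32 in WT livers. No E14.5 array reached the lowest E12.5 value, and the E14.5 ERG/GATA1s pair was the highest of its stage. Over the 4 genotypes Hba-x was 10.06 ± 0.47 at E14.5 and 12.22 ± 0.18 at E12.5 (SD, n = 8 each), a fall of 2.16 ± 0.09 (SE), or 4.48-fold, in 8 of 8 pairs of the same genotype and labelled sex (limma, adjusted p = 2.53e-09).

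Hbb-bh1, the embryonic beta-like chain that belongs to the earliest primitive cells, fell most among the 7 genes. At E14.5 its signal was 8.03 and 8.82 in ERG/GATA1s, 9.89 and 9.13 in GATA1s, 8.07 and 8.05 in ERG, and 9.53 and 8.95 in WT livers. At E12.5 it was 11.69 and 11.62 in ERG/GATA1s, 11.23 and 11.29 in GATA1s, 11.74 and 12.19 in ERG, and 11.59 and 11.84 in WT livers. The stages did not overlap, and at E14.5 the 4 arrays with the ERG transgene all lay below the 4 without it, a grouping that was not tested. Over the 4 genotypes it averaged 8.81 ± 0.71 at E14.5 and 11.65 ± 0.30 at E12.5 (SD, n = 8 each), a difference of -2.84 ± 0.14 (SE), or 7.16-fold lower at E14.5 in 8 of 8 pairs (adjusted p = 7.83e-09).

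Hbb-y, the other embryonic beta-like chain, which replaces Hbb-bh1 as primitive cells mature, changed less. At E14.5 its signal was 11.96 and 12.01 in ERG/GATA1s, 11.88 and 11.62 in GATA1s, 11.74 and 11.79 in ERG, and 11.85 and 11.42 in WT livers. At E12.5 it was 12.49 and 12.63 in ERG/GATA1s, 12.37 and 12.29 in GATA1s, 12.52 and 12.66 in ERG, and 12.45 and 12.49 in WT livers. The stages again did not overlap. Hbb-y at E12.5 (12.29 to 12.66) lay near the highest value on an array (12.92 to 13.32), and whether this narrowed its differences was not tested. The mean was 11.78 ± 0.19 at E14.5 and 12.49 ± 0.12 at E12.5 (SD, n = 8 each), a fall of 0.70 ± 0.08 (SE), or 1.63-fold, in 8 of 8 pairs (adjusted p = 5.42e-06).

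**Figure D1:**
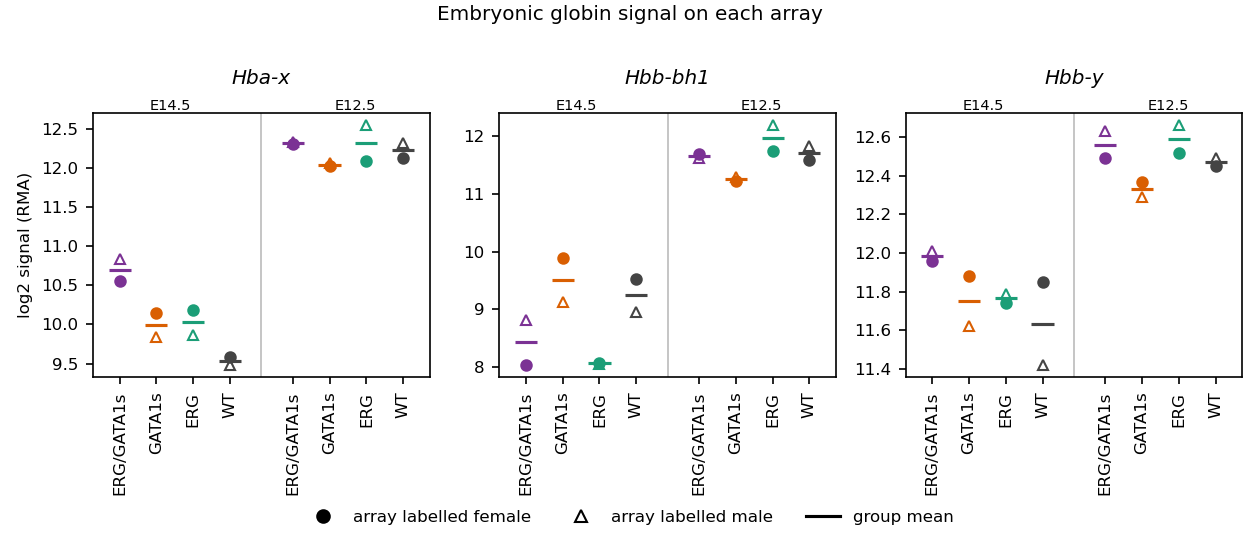
Log2 signal (RMA) of Hba-x, Hbb-bh1 and Hbb-y on each of the 16 arrays, with E14.5 left of E12.5 and the genotypes in the order ERG/GATA1s, GATA1s, ERG and WT; filled circles are arrays labelled female, open triangles arrays labelled male, and bars group means (n = 2). Every E14.5 array lies below every E12.5 array in each panel, and each panel has its own scale.

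The promoters of Hba-x and Hbb-y are shown because these genes fell together with stage and are controlled by factors measured here. Each sequence holds 250 bases before and 50 after the start of the gene (RefSeq, GRCm38.p6), given 5′ to 3′ on the strand of the gene. Capitals mark matches, searched on both strands, to letters that are known for these factors. KLF1 is known to bind CACCC boxes, NF-Y is known to bind the CCAAT box, and BCL11A is known to bind the letters TGACCA in human globin promoters. For GATA1 the 4 forms searched were AGATAA, with its close relative AGATAG, and in the same way TGATAA, with its close relative TGATAG. For SOX factors the forms searched were AACAAAG and its close relative AACAATG, and for the TATA box the form searched was TATAAA. Of the 7 genes, 6 had a promoter in the RefSeq table and Hbb-bh1 had none. The Hba-x promoter lies at chr11:32276350-32276649 on the plus strand and the Hbb-y promoter at chr7:103853158-103853457 on the minus strand.
Hba-x: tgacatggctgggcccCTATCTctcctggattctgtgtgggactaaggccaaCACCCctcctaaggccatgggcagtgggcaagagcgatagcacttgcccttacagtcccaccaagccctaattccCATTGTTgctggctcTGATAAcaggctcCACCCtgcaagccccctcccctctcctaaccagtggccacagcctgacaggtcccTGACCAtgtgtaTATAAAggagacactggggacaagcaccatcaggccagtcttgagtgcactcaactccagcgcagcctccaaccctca
Hbb-y: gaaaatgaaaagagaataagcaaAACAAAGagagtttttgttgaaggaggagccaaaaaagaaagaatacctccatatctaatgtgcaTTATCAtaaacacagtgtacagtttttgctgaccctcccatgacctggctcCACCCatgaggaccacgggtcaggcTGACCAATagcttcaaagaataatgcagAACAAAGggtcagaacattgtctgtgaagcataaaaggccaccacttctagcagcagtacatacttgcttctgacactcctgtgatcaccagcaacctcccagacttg
In Hba-x a GATA match lies at -108 to -103, a CACCC match at -95 to -91, a TGACCA match at -40 to -35 and TATAAA at -28 to -23, counted from the start. In Hbb-y a CACCC match lies at -111 to -107 and TGACCA at -86 to -81, where it overlaps CCAAT at -83 to -79, and AACAAAG occurs at -227 to -221 and -58 to -52. Among 32851 promoters of the same length, 57.5% hold CACCC, 29.8% a GATA match, 37.4% CCAAT, 13.6% TGACCA, 9.36% a SOX match and 13.6% TATAAA. A match describes letters only.

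Adult globins lay near the top of the scale and passed no test. Both probe sets of adult alpha-globin are paired with Hba-a1 and Hba-a2 together, and both of adult beta-globin with Hbb-bt, Hbb-bs, Hbb-b2 and Hbb-b1, so no gene of these can be read alone. Adult alpha signal was 12.67 to 12.92 and adult beta signal 12.13 to 12.83 over the 16 arrays, where the highest value on an array was 12.92 to 13.32. The stage difference was -0.09 ± 0.06 (SE) for adult alpha and 0.08 ± 0.07 for adult beta, and neither passed (adjusted p = 0.233 and 0.359). Whether the arrays could still register a rise at such signals was not tested. At E12.5 Hbb-y (12.29 to 12.66) and Hba-x (12.02 to 12.54) lay near these signals, and whether this narrowed their differences was not tested. Of the other globins over the 4 genotypes, the theta genes Hbq1b (0.47 ± 0.09, adjusted p = 0.000424) and Hbq1a (0.36 ± 0.12, adjusted p = 0.0217) rose at E14.5. Hbb-bh2 fell by 0.45 ± 0.07 (adjusted p = 0.000205). Signals of Hbq1a (3.41 to 5.1) and Hbb-bh2 (3.86 to 4.73) lay near the filter value of 3.74. Within single genotypes no Hbq1a difference passed, at -0.32 in ERG/GATA1s and 0.49 to 0.70 in the other genotypes.

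Among the factors, Myb fell with stage, Sox6 rose, and Bcl11a and Klf1 did not pass the test. With the 3 globins this makes 5 of the 7 genes past the threshold of 0.05, against 56.2% of the 16258 genes tested. Lower calls numbered 4 of the 7, against 27.2% of genes tested lower at E14.5. The median difference was -0.70 over the 7 genes and -0.03 over all genes tested. Counts of 7 genes chosen by name are a description and single no gene out.

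Myb, whose protein keeps progenitors dividing, had an E14.5 signal of 8.01 and 7.97 in ERG/GATA1s, 7.76 and 7.69 in GATA1s, 8.29 and 8.38 in ERG, and 8.42 and 8.15 in WT livers. At E12.5 it was 8.89 and 8.52 in ERG/GATA1s, 8.61 and 8.68 in GATA1s, 8.93 and 9.21 in ERG, and 8.92 and 8.48 in WT livers. All E14.5 arrays lay below all E12.5 arrays. The mean was 8.08 ± 0.27 at E14.5 and 8.78 ± 0.25 at E12.5 (SD, n = 8 each), a fall of 0.70 ± 0.08 (SE) in 8 of 8 pairs (adjusted p = 1.46e-05).

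Sox6, the repressor that acts on Hbb-y in definitive cells, had an E14.5 signal of 8.02 and 7.55 in ERG/GATA1s, 8.09 and 7.92 in GATA1s, 8.21 and 8.13 in ERG, and 8.40 and 8.0 in WT livers. At E12.5 it was 7.44 and 7.11 in ERG/GATA1s, 7.68 and 7.61 in GATA1s, 7.86 and 6.19 in ERG, and 7.84 and 7.50 in WT livers. The stages overlapped, and the male-labelled E12.5 ERG array was the lowest by far. Sox6 was 8.04 ± 0.25 at E14.5 and 7.40 ± 0.55 at E12.5 (SD, n = 8 each), a rise of 0.64 ± 0.14 (SE) in 8 of 8 pairs (adjusted p = 0.00203). The call held without that array and in every other alternative and left-out array, with adjusted p up to 0.0211. The same array had the lowest mean of the 26 definitive red cell genes at its stage (9.46, against 9.59 to 10.05 on the other E12.5 arrays), and the part of this in its Sox6 value was not tested.

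Bcl11a, the main silencer of embryonic beta-like globins, averaged 9.24 ± 0.24 at E14.5 and 9.23 ± 0.38 at E12.5 (SD, n = 8 each). The difference of 0.01 had a 95% interval of -0.15 to 0.16. Klf1, the activator of adult beta-globin, averaged 9.39 ± 0.34 at E14.5 and 9.25 ± 0.21 at E12.5, a difference of 0.14 with an interval of -0.01 to 0.29 (adjusted p = 0.0998). Both genes varied with genotype, as given below.

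**Figure D2:**
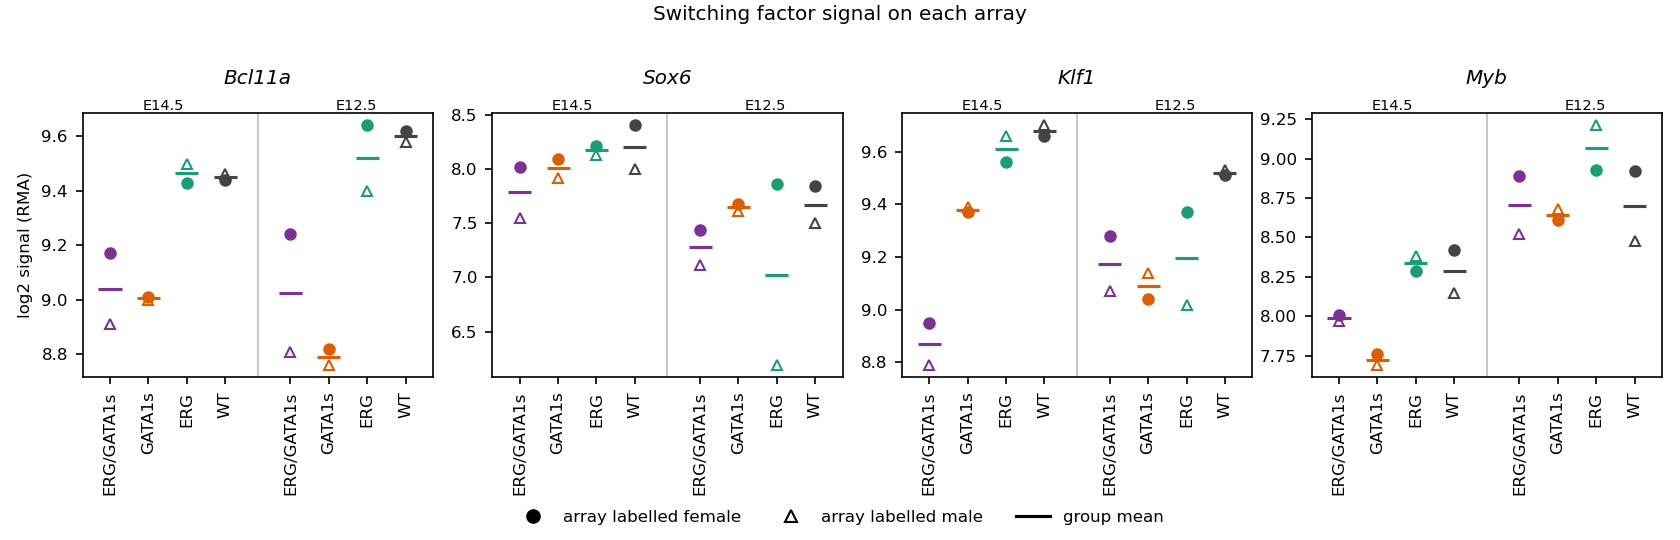
Log2 signal (RMA) of Bcl11a, Sox6, Klf1 and Myb on each of the 16 arrays, laid out by stage, genotype and labelled sex with bars at group means (n = 2). Bcl11a separates the arrays with the GATA1s allele (8.76 to 9.24) from those without it (9.40 to 9.64), and Klf1 is lowest in E14.5 ERG/GATA1s (8.95 and 8.79).

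The stage differences were also read within each genotype, 2 arrays against 2. In WT livers, where 18.2% of genes passed, 3 of the 7 did: Hba-x fell by 2.70 ± 0.18, Hbb-bh1 by 2.48 ± 0.28 and Hbb-y by 0.84 ± 0.15 (SE, adjusted p = 4.14e-06, 0.000151 and 0.00258). With only the 4 WT arrays fitted, none of these calls was kept (adjusted p = 0.0876, 0.0876 and 0.0987). In ERG/GATA1s livers 4 passed (21.9% of all genes), and Hba-x fell by 1.62 ± 0.18 and Hbb-bh1 by 3.23 ± 0.28 (adjusted p = 6.27e-05 and 1.59e-05). In GATA1s livers 4 passed (22.5%), where Hba-x fell by 2.05 ± 0.18 and Hbb-bh1 fell by 1.75 ± 0.28. In ERG livers 5 passed (17.6%), and the fall of Hbb-bh1 was 3.91 ± 0.28 (adjusted p = 1.36e-05), with means of 8.06 ± 0.01 at E14.5, against 11.97 ± 0.32 at E12.5 (SD, n = 2 each). With only the 4 ERG arrays fitted, none of these 5 calls was kept (adjusted p = 0.0608 for both Hba-x and Hbb-bh1). The rise of Sox6 in ERG livers (1.15 ± 0.28, adjusted p = 0.0137) was 0.44 with the male-labelled E12.5 array left out, and then did not pass (adjusted p = 0.185), nor did it pass without the male-labelled E14.5 array. Without the arrays opposed by sex markers, the Hbb-y and Myb calls in ERG/GATA1s livers and the Hbb-y call in GATA1s livers were lost. The Hbb-y call in ERG/GATA1s livers was also lost with the Y-linked level as covariate.

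Genes that work with these factors moved in both directions with stage. Of 38 measured partners and regulators of globin switching, 6 rose and 16 fell at E14.5 (median difference -0.13, against -0.03 over all genes), a share close to the 56.2% of all genes that passed. They included the repressor Zbtb7a (-0.44, adjusted p = 0.000896), the NuRD subunits Gatad2b (-0.62) and Gatad2a (-0.60), the stem cell factor Runx1 (-0.88), the NF-Y subunit Nfyb (0.85), and the fetal RNA-binding protein genes Lin28b (0.43) and Igf2bp1 (-0.49). Of 15 factors and cofactors that act at the globin enhancers, among which Bach1 is a repressor, 2 rose and 11 fell (median -0.30), among them Nfe2 (0.75), Tcf3 (-0.66), Lmo4 (-0.66) and Gata1 (-0.26). Of 18 reported KLF1 targets, 6 rose and 3 fell (median 0.12), below the share over all genes, with the water channel gene Aqp1 at 0.99 and Trim10 at 0.86. Of 15 progenitor genes, 3 rose and 8 fell (median -0.28), among them Cd34 (-1.05), Spi1 (-0.99) and Kit (-0.68), the receptor of stem cell factor, and also Gata2 (-0.43, adjusted p = 0.00635).

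Markers of other cells moved with stage too, where 56.2% of all genes passed. All 13 hepatocyte genes rose (median 1.92), with list means of 10.48 to 11.31 at E14.5 and 8.46 to 9.88 at E12.5, and all 10 macrophage genes rose (median 1.02), with list means of 6.29 to 7.04 at E14.5 and 5.24 to 5.57 at E12.5. Of 26 definitive red cell genes, 9 rose and 1 fell (median 0.13), below the share over all genes. Of 7 endothelial genes 5 rose (median 0.98). Of 12 granulocyte genes 2 rose and 8 fell (median -0.55), and of 10 megakaryocyte genes 3 rose and 5 fell. These shifts move with the fall of the embryonic globins, and their part in it was not tested. In such bulk samples fewer cells of a type and less RNA per cell cannot be told apart.

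The GATA1s allele was compared with WT to ask which genes differ in livers that carry it. Bcl11a was lower, and no other of the 7 genes passed over both stages. Its E14.5 signal was 9.01 and 9.0 in GATA1s livers, against 9.44 and 9.46 in WT livers. At E12.5 it was 8.82 and 8.76 in GATA1s livers, against 9.62 and 9.58 in WT livers. The groups did not overlap at either stage. Over both stages Bcl11a averaged 8.90 ± 0.13 in GATA1s and 9.53 ± 0.09 in WT livers (SD, n = 4 each), a fall of 0.63 ± 0.10 (SE), or 1.55-fold, in 4 of 4 pairs (adjusted p = 0.00408, where 3.81% of genes passed). It held in each of 11 alternatives and 16 left-out arrays, with adjusted p up to 0.0326 and differences of -0.67 to -0.59.

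At E12.5 alone Bcl11a fell by 0.81 ± 0.14 in GATA1s livers (adjusted p = 0.0194, 1 of 7 genes against 1.33% of all). This call was lost when any of its 4 arrays was left out (adjusted p up to 0.267) and also without the 3 arrays opposed by sex markers or with only the 4 arrays fitted. In the same comparison 8 of 13 hepatocyte genes fell (median -1.22), with list means of 8.5 and 8.46 in GATA1s livers, against 9.75 and 9.53 in WT livers, and their part in the Bcl11a difference was not tested. At E14.5 none of the 7 passed (1.07% of all genes did). An unadjusted p under 0.05 was found for 4 of the 7 and for 2226 of the 16258 genes tested. Among the 4 were Bcl11a (-0.45, adjusted p = 0.161) and Myb (-0.56 ± 0.17, adjusted p = 0.135). Myb signal there was 7.76 and 7.69 in GATA1s livers, against 8.42 and 8.15 in WT livers. Klf1 was lower in 4 of 4 pairs over both stages, at 9.24 ± 0.17 in GATA1s and 9.60 ± 0.09 in WT livers (SD, n = 4 each). Its difference of -0.37 ± 0.10 did not pass (adjusted p = 0.0577).

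Of the 38 switching partners 1 rose and 2 fell in GATA1s livers over both stages, where 3.81% of all genes passed, namely Runx1 (0.65, adjusted p = 0.0155), the NF-Y subunit Nfya (-0.45) and the zinc finger gene Zfp410 (-0.44), an activator of the NuRD subunit Chd4. Zbtb7a (-0.28, adjusted p = 0.245) and Gata1 (-0.05, adjusted p = 0.891) did not pass. Among the factors and cofactors at the globin enhancers Lmo2, the bridging protein of the GATA1 complex, fell by 0.58 (adjusted p = 0.00664), and the repressor Bach1 rose by 0.39 (adjusted p = 0.0332). Of the 18 KLF1 targets only Ermap passed (-0.41, adjusted p = 0.0462). The progenitor factor Gata2 rose by 0.70 (adjusted p = 0.0306). Of the factors' paralogues, Klf6 (0.88) and Klf11 (0.57) rose. Of the 26 definitive red cell genes 1 rose, Car1 (1.76), and 5 fell. Megakaryocyte genes also differed: 9 of 10 rose in GATA1s livers, and the list mean was 8.34 to 9.10 on the 8 arrays with the GATA1s allele, against 7.36 to 8.11 on the 8 without it. The part of these markers in the Bcl11a difference was not tested.

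ERG/GATA1s livers, which carry both alleles, differed from WT in 3 of the 7 genes over both stages, against 10.6% of all genes. Hba-x was higher, and Klf1 and Bcl11a were lower (6.52% of all genes were lower). Bcl11a averaged 9.03 ± 0.21 in ERG/GATA1s and 9.53 ± 0.09 in WT livers (SD, n = 4 each), a fall of 0.49 ± 0.10 (SE) in 4 of 4 pairs (adjusted p = 0.00719). Hba-x was higher by 0.63 ± 0.12 in 4 of 4 pairs (adjusted p = 0.00623). Klf1 fell by 0.58 ± 0.10 in 4 of 4 pairs, at 9.02 ± 0.21 in ERG/GATA1s and 9.60 ± 0.09 in WT livers (adjusted p = 0.00284). Each call held without any 1 array. Without the 3 arrays opposed by sex markers, the differences were 0.69 for Hba-x, -0.45 for Bcl11a and -0.57 for Klf1, and none passed (adjusted p = 0.0798, 0.0709 and 0.0561). With the Y-linked level as covariate all 3 passed, at 0.65, -0.48 and -0.57 (adjusted p = 0.0104, 0.0234 and 0.0065). The Hba-x call was also lost with arrayWeights (adjusted p = 0.07).

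Read at each stage, Hba-x passed at E14.5 and not at E12.5, and the test of the difference between the stages did not pass (adjusted p = 0.0763). At E14.5 its signal was 10.56 and 10.83 in ERG/GATA1s livers, against 9.58 and 9.48 in WT livers, a rise of 1.17 ± 0.18, or 2.24-fold (adjusted p = 0.00101). Klf1 at E14.5 was 8.95 and 8.79 in ERG/GATA1s livers, against 9.66 and 9.70 in WT livers, a fall of 0.81 ± 0.14, or 1.75-fold (adjusted p = 0.00251). These 2 of the 7 genes passed at E14.5, where 9.16% of all genes did. Both calls were kept with the Y-linked covariate (adjusted p = 0.00306 and 0.0111), and lost when only the 4 arrays compared were fitted (adjusted p = 0.115 and 0.131). They were also kept without any 1 array and without the arrays opposed by sex markers. The latter fit leaves 1 ERG/GATA1s array at E14.5, so its spread comes from the other groups. The beta-like chains did not pass: Hbb-bh1 was 8.03 and 8.82 in ERG/GATA1s livers, against 9.53 and 8.95 in WT livers (-0.82 ± 0.28, adjusted p = 0.0926), and Hbb-y differed by 0.35 ± 0.15 (adjusted p = 0.198). The difference was above 0 for Hba-x and below 0 for Hbb-bh1, and only that of Hba-x passed.

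At E12.5 none of the 7 genes passed in ERG/GATA1s livers, where 0.00615% of all genes did. Of the 7, 2 had an unadjusted p under 0.05, as did 2564 of the 16258 genes tested. Hba-x was 12.30 and 12.33 in ERG/GATA1s livers, against 12.13 and 12.32 in WT livers. Bcl11a was 9.24 and 8.81 in ERG/GATA1s livers, against 9.62 and 9.58 in WT livers (-0.58 ± 0.14, adjusted p = 0.149). Whether the Hba-x effect differs between stages was tested as an interaction, 1.08 ± 0.25, which did not pass (adjusted p = 0.0763).

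**Figure D3:**
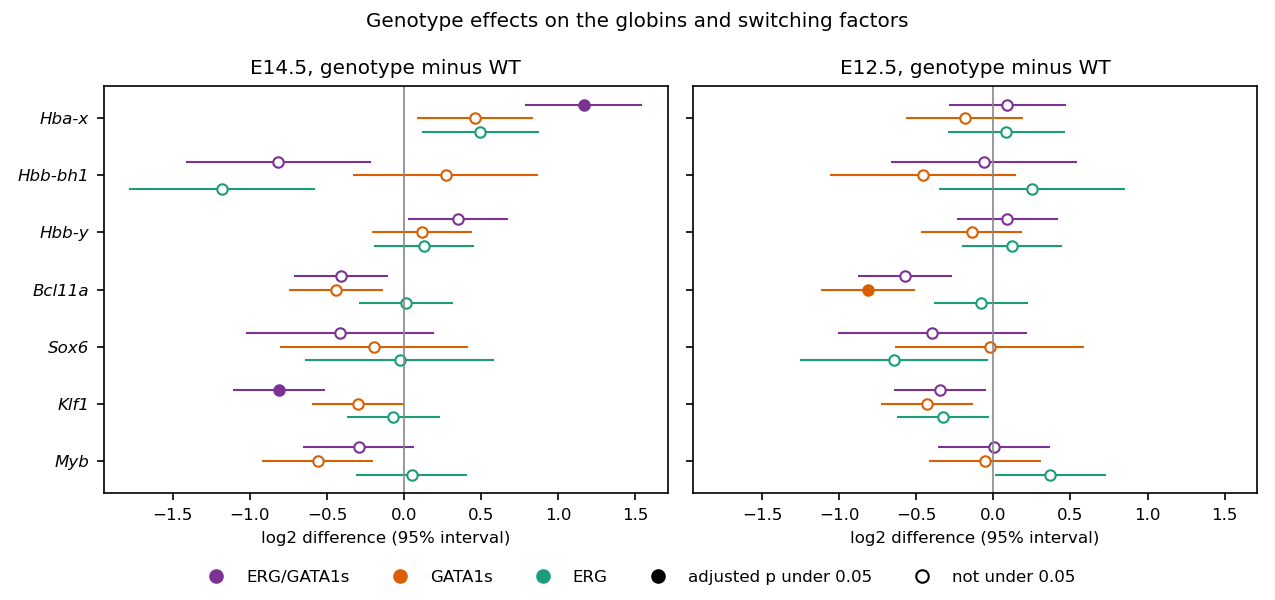
Log2 differences of each genotype minus WT for the 7 genes, at E14.5 on the left and E12.5 on the right, with 95% intervals from the fit to all 16 arrays; filled points passed an adjusted p of 0.05. At E14.5 Hba-x (1.17) and Klf1 (-0.81) passed in ERG/GATA1s, and at E12.5 Bcl11a (-0.81) passed in GATA1s.

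The Klf1 promoter, shown because Klf1 was the switching factor that differed most in ERG/GATA1s livers and is itself a GATA1 target, lies at chr8:84901732-84902031 on the plus strand (RefSeq, GRCm38.p6), with the same motifs in capitals.
Klf1: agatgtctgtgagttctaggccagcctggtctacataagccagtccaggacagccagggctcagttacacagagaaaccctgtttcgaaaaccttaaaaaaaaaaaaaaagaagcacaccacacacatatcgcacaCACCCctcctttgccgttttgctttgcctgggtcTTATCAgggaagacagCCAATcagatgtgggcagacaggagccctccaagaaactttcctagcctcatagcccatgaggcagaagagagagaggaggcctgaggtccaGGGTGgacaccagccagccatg
It holds a CACCC match at -114 to -110, a GATA match on the other strand at -80 to -75, CCAAT at -64 to -60 and a CACCC match on the other strand at 29 to 33.

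Reported KLF1 targets were mostly lower in ERG/GATA1s livers. Of the 18 measured KLF1 targets, 12 fell and none rose over both stages, where 10.6% of all genes passed and 6.52% were lower. The median difference was -0.55, against -0.01 over all genes. At E14.5 alone 13 fell (median -0.85), where 9.16% of all genes passed, and at E12.5 alone none passed (median -0.24), where 0.00615% did. They included the membrane skeleton gene Dmtn (-1.02, adjusted p = 0.0015), the adhesion molecule gene Icam4 (-0.89), Trim10 (-0.86) and the blood group gene Kel (-0.84). Of the 26 definitive red cell genes, 21 fell and 1 rose over both stages, 22 fell and 1 rose at E14.5 alone, and none passed at E12.5 alone. Whether these counts differ between stages was not tested. The haem synthesis gene Uros was at -1.13 and the Rhesus gene Rhd at -1.05, while the carbonic anhydrase gene Car1 was at 1.69. The list mean of these 26 genes at E14.5 was 9.56 and 9.29 in ERG/GATA1s livers, against 10.52 and 10.15 in WT livers. The lists share members with each other, and the part of the red cell shift in the Klf1 difference was not tested.

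Of the 38 switching partners, 1 rose and 4 fell in ERG/GATA1s livers over both stages, a share near the 10.6% of all genes that passed. Zbtb7a, which represses fetal and embryonic globins beside BCL11A, fell by 0.66 (adjusted p = 0.00464). The haem-regulated kinase gene Eif2ak1 fell by 0.59 and Nfyb by 0.51, and Runx1 rose by 0.80. Lin28b (-0.36, adjusted p = 0.145) and Igf2bp1 (-0.28, adjusted p = 0.198) did not pass. Of the 15 factors and cofactors at the globin enhancers none rose and 3 fell, Lmo2 by 0.53, Zfpm1 by 0.46 and Ssbp3 by 0.38, and Gata1 did not pass (-0.10, adjusted p = 0.665). Among the paralogues Klf6 rose by 1.03 and Klf11 by 0.55, and Klf3, a KLF1 target that opposes KLF1, fell by 0.54. Gata2, which GATA1 represses, rose by 1.60 (adjusted p = 0.000191). Megakaryocyte genes (8 of 10 up, 1 down) and granulocyte genes (6 of 12 up) rose and proliferation genes (6 of 9) fell in the same livers, and their part in the differences of the 7 genes was not tested.

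**Figure D4:**
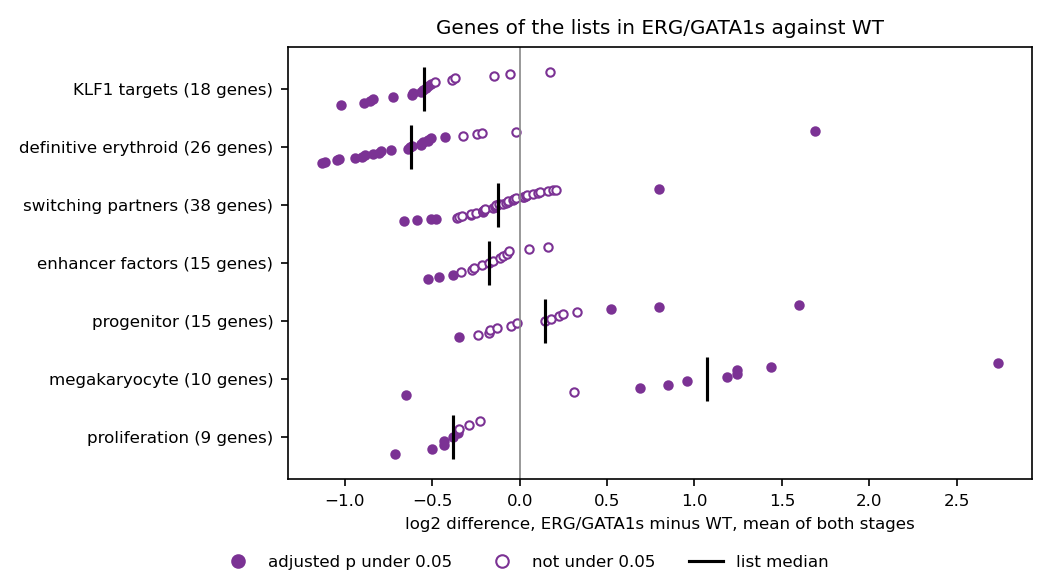
Log2 differences of ERG/GATA1s minus WT, averaged over both stages, for each measured gene of 7 lists; filled points passed an adjusted p of 0.05 and vertical bars are list medians. KLF1 targets (median -0.55) and definitive red cell genes (median -0.62) lie mostly below 0, and megakaryocyte genes (median 1.07) mostly above it.

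ERG/GATA1s livers were also set against each allele alone. Against ERG livers, Bcl11a (-0.46 ± 0.10, adjusted p = 0.0127) and Klf1 (-0.38 ± 0.10, adjusted p = 0.0289) fell over both stages, 2 of 7 genes where 9.02% of all passed. Bcl11a averaged 9.03 ± 0.21 in ERG/GATA1s and 9.49 ± 0.11 in ERG livers (SD, n = 4 each) without overlap. The Klf1 call was lost with the Y-linked level as covariate, with only the arrays compared and with arrayWeights. Neither call was kept without the arrays opposed by sex markers. The Bcl11a call was lost without 1 of 3 arrays (the E12.5 ERG array labelled female, or the E14.5 ERG or ERG/GATA1s array labelled male, adjusted p up to 0.0867), and the Klf1 call without 1 of 6 (adjusted p up to 0.158). Of the 18 KLF1 targets none rose and 3 fell against ERG livers, and of the 26 definitive red cell genes 1 rose and 7 fell, while 8 of 10 megakaryocyte and 11 of 12 granulocyte genes rose. The part of these markers in the 2 differences was not tested. At E14.5 Hba-x rose by 0.67 ± 0.18 (adjusted p = 0.0345) and Klf1 fell by 0.74 ± 0.14 (adjusted p = 0.00588), where 7.34% of all genes passed. Klf1 was 8.95 and 8.79 in ERG/GATA1s livers, against 9.56 and 9.66 in ERG livers. Both E14.5 calls were lost with only the 4 arrays compared and without the arrays opposed by sex markers. That of Hba-x was also lost with median centring and with the Y-linked level as covariate. Without 1 of 6 arrays, which include the 4 compared and both E12.5 GATA1s arrays, the Hba-x call was lost (adjusted p up to 0.378), and without the E14.5 ERG or ERG/GATA1s array labelled male that of Klf1 was lost (adjusted p up to 0.0991).

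Against GATA1s livers none of the 7 genes passed over both stages, where 0.117% of all did. Of the 7, 3 had an unadjusted p under 0.05, as did 1264 of the 16258 genes tested. Hba-x was higher in 4 of 4 pairs, by 0.49 ± 0.12 (adjusted p = 0.203), with a 95% interval of 0.22 to 0.76. Bcl11a differed by 0.14 ± 0.10, with an interval of -0.08 to 0.35. At E14.5 Hbb-bh1 was 8.03 and 8.82 in ERG/GATA1s livers, against 9.89 and 9.13 in GATA1s livers, without overlap, and the difference of -1.09 ± 0.28 did not pass (adjusted p = 0.0762).

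The ERG transgene alone gave no call among the 7 genes against WT. Over both stages 0.283% of all genes passed, and 2 of the 7, Hba-x and Hbb-bh1, had an unadjusted p under 0.05, as did 1250 of the 16258 tested. Hbb-bh1 came nearest at E14.5, with 8.07 and 8.05 in ERG livers, against 9.53 and 8.95 in WT livers. Its difference of -1.18 ± 0.28, or 2.27-fold lower, had an adjusted p of 0.0522, where 1.69% of all genes passed. It passed with a stricter filter (adjusted p = 0.0402) and with the Y-linked level as covariate (0.0334), and reached 0.581 when only the 4 arrays compared were fitted. At E14.5, 5 of 12 granulocyte genes (median -1.08), 4 of 10 megakaryocyte genes, 2 of 10 macrophage genes and 1 of 8 B lymphoid genes fell in ERG livers, while 1 megakaryocyte gene and the progenitor genes Gata2 (2.37) and Myc (0.76) rose. Granulocyte list means were 6.32 and 6.47 in ERG livers, against 7.83 and 7.08 in WT livers, and the part of these markers in the Hbb-bh1 difference was not tested. Hba-x at E14.5 was 10.18 and 9.87 in ERG livers, against 9.58 and 9.48 in WT livers (0.50 ± 0.18, adjusted p = 0.275). At E12.5 no gene of the 16258 passed (0% called), 666 had an unadjusted p under 0.05, and these included 3 of the 7: Sox6, Klf1 and Myb. Klf1 there was 9.37 and 9.02 in ERG livers, against 9.51 and 9.53 in WT livers. Sox6 was 7.86 and 6.19 in ERG livers, against 7.84 and 7.50 in WT livers, and Myb 8.93 and 9.21, against 8.92 and 8.48. Of these arrays the ERG array labelled male held the lowest Sox6 and Klf1 and the highest Myb signal. Of the listed genes only Gata2 passed in ERG livers over both stages (1.04, adjusted p = 0.0169). The comparisons of the 3 genotypes with WT share the same WT arrays.

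Whether the stage difference depended on genotype was asked of each gene with an F test that joined the 3 interaction terms, which 2.42% of genes passed. Of the 7, only Hbb-bh1 passed (adjusted p = 0.0332). Its fall was 3.23 in ERG/GATA1s, 1.75 in GATA1s, 3.91 in ERG and 2.48 in WT livers. No term alone passed for it: that of ERG was -1.43 ± 0.40 (adjusted p = 0.26), that of GATA1s 0.73 ± 0.40 and that of ERG/GATA1s -0.76 ± 0.40. The F test was lost in 6 of 10 alternatives and without any 1 of 9 arrays. Hba-x did not pass (adjusted p = 0.114), although it fell by 1.62 in ERG/GATA1s livers and fell by 2.70 in WT livers. Klf1 was lower at E14.5 in ERG/GATA1s livers (-0.31) and higher in GATA1s (0.29), ERG (0.42) and WT livers (0.16), and its F test did not pass either (adjusted p = 0.183).

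The order of the 8 group means differed between genes. For each embryonic globin the 4 E12.5 groups stood above the 4 E14.5 groups. Within E12.5 GATA1s was the lowest group for all 3 globins, at 12.04 ± 0.03 for Hba-x, 11.26 ± 0.04 for Hbb-bh1 and 12.33 ± 0.06 for Hbb-y (SD, n = 2). None of these 3 passed against WT at E12.5 (limma, adjusted p = 0.635, 0.447 and 0.685). Neighbouring means at the top of these orders, such as Hba-x in E12.5 ERG/GATA1s (12.32 ± 0.02) and ERG (12.31 ± 0.33), differed by less than their SD. For Bcl11a the order followed the GATA1s allele and not the stage: the 4 groups with the allele (8.79 ± 0.04 to 9.04 ± 0.18) stood below the 4 without it (9.45 ± 0.01 to 9.60 ± 0.03). For Klf1, E14.5 WT was the highest (9.68 ± 0.03) and E14.5 ERG/GATA1s the lowest (8.87 ± 0.11). For Myb, E12.5 ERG was the highest (9.07 ± 0.20) and E14.5 GATA1s the lowest (7.73 ± 0.05).

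Genes with the most similar pattern over the 16 arrays were listed by Pearson's r, which the 2 stages and 4 genotypes drive and which carries no test. Hba-x and Hbb-y were each other's nearest gene (r = 0.967), and Hba-x was also close to Rrp9, Kat2a, Tet3 and Tcof1 (0.957 to 0.963). Hbb-bh1 was nearest to Padi2 (0.942), Cox10, Gabrp, Fam117b and Epx. Bcl11a was nearest to Map11 (0.95), Cwf19l1, Mdc1, Nop56 and Zfp639. Sox6 was nearest to Tspo2 (0.943) and the theta globin gene Hbq1b (0.92), then to Dnaja4, Phlpp2 and Cr1l. Hbq1b was, like Sox6, lowest on the E12.5 ERG array labelled male (7.05, against 7.58 to 8.14 on the other E12.5 arrays). Klf1 was nearest to Fn3krp (0.971), the Rhesus gene Rhd (0.952), Tcf19, Uros (0.951) and Tnfrsf14. Myb was nearest to Iars (0.942), Pcgf6, Wnt5a, Srrm2 and Ccdc141, and Hbb-y, after Hba-x, to Snora75, AY036118, Atxn2l and Rpl21.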

How the data were processed

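Total RNA of fetal liver cell suspensions was labelled with biotin and hybridised to 16 arrays, per the labels' protocols. The deposited files hold log2 signals per probe set, which the authors computed with RMA, per the submitters' processing notes, and rounded to 2 decimals. No build for the arrays is stated in those sources. Of 28270 probe sets, 21780 had 1 symbol. The probe set with the highest mean stood for a symbol, and 16258 were kept that exceeded 3.74, the 30th percentile, on 2 or more arrays. The model, run with limma 3.58.1 in R 4.3.3 over the 16 arrays, had 1 mean per group and labelled sex as covariate (7 residual degrees of freedom). P-values were two-sided, moderated by eBayes, and adjusted by Benjamini-Hochberg over the 16258, with 0.05 as threshold. Precision is limited by the number of arrays. The fit was also run on simulated arrays with independent noise and known changes set in ERG/GATA1s livers. These held no stage difference, sex effect or outlying array, so they do not bear on those limits.

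The 7 genes and the lists were chosen with earlier results of these data known. From each list up to 4 genes past the threshold with the largest difference per comparison are named, and the adult globins, Gata1, Erg, Gata2, Zbtb7a, Lin28b and Igf2bp1 always. The 5 genes with the highest r stand for similar patterns. Alternatives were other filters, quantile normalization, median centring, no sex term, a Y-linked covariate, leaving out the 3 arrays opposed by sex markers or each array in turn, only the arrays compared, arrayWeights, eBayes with trend and robust, and all probe sets.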

Additional observations from a re-analysis of the deposited data

Results flagged for a closer look

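Hbb-bh1 was the only one of the 7 genes that passed the F test over the 3 stage by genotype terms (limma, adjusted p = 0.0332). Its fall at E14.5 was 3.23 in ERG/GATA1s, 1.75 in GATA1s, 3.91 in ERG and 2.48 in WT livers on the log2 scale. The gene fell in 2 of 2 pairs of arrays in each genotype, which does not bear on whether the size of the fall differed. This F test call was lost in 6 of 10 alternatives, and none of the 3 terms passed alone.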

How the results depend on the processing

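The 33 single results that passed include the Hbb-bh1 F test, which has no sign, and none of the differences among them changed sign in any alternative. Of the 33, 11 were kept in every alternative and left-out array. Without the 3 arrays opposed by sex markers, 0 of the 7 genes passed in ERG/GATA1s against WT (3 with all arrays), 0 in ERG/GATA1s against ERG (2 with all arrays) and 0 in the stage by genotype test (1 with all arrays). With only the arrays compared, 0 passed for stage in WT (3 in the full fit), 0 for genotypes at each stage (3 in the full fit) and 1 for ERG/GATA1s against ERG, which also kept 1 with the Y-linked covariate and 1 with arrayWeights. GATA1s against WT gave 2 with quantile normalization and 2 with trend and robust. The stage by genotype count was 0 with no filter, quantile normalization, median centring or all probe sets. Leaving out each array in turn gave 5 to 6 genes for stage, 3 to 4 for stage in WT, 0 to 1 for ERG, 1 to 2 for GATA1s and 3 to 4 for ERG/GATA1s against WT, 0 to 3 for ERG/GATA1s against ERG, 0 against GATA1s throughout, 2 to 5 for genotypes at each stage and 0 to 2 for stage by genotype. Fits with fewer arrays have fewer degrees of freedom. The cause of the other changes was not tested. No paired analysis was possible because the replicate numbers stand for labelled sex in accession order, which the fit already holds as a covariate.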
